A study of Mus musculus with 9 samples.

Results

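Mpo and 6 other genes of the primary granule program of neutrophil precursors were followed through mouse bone marrow cultures before and after transformation by a leukaemia fusion gene. The 7 genes were chosen by symbol: Mpo, the serine protease genes Elane, Prtn3 and Ctsg, the membrane protein gene Ms4a3, the protease inhibitor gene Serpinb1a and the repressor gene Gfi1. All 7 were matched to 1 Ensembl identifier each among the 21159 genes of the count table, and all 7 were among the 11196 genes kept by the filter on low counts. The data were QuantSeq libraries, in which 1 read is taken near the 3' end of a transcript, so a count does not grow with transcript length. Levels are given as CPM, counts per 1000000 of the library total after its scaling by the TMM factor.

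The 9 libraries formed 3 groups of 3, named as independent biological replicates in the labels. Every group came from Lin- bone marrow cells of the genotype Runx2fl/fl CreErt2tg/+, that is, with a floxed Runx2 and a tamoxifen-inducible Cre, so the controls carried both alleles too. Per the labels, these cells received a retrovirus for KMT2A-MLLT1 with eGFP, were kept for 24 hours with IL-3, IL-6 and stem cell factor, and were then plated in methylcellulose and replated every 7 days. The untreated BM progenitor libraries were made from cells taken before the first replating. The Runx2wt and Runx2ko libraries were made from transformed cells in later suspension culture, given ethanol or 400 nM 4-hydroxytamoxifen for 24 hours. Passage and culture form thus differ between BM progenitor and both transformed groups, and the drug and Cre activity go with every Runx2ko library. These cannot be told apart from transformation or from loss of Runx2. Whether every BM progenitor cell carried the fusion is not stated in the labels, and neither is the deleted exon of Runx2.

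Primary (azurophil) granules are the first granules made in neutrophil development, at the promyelocyte stage, and their proteins are stored for killing microbes after phagocytosis. Myeloperoxidase uses hydrogen peroxide to make hypochlorous acid, while neutrophil elastase, proteinase 3 and cathepsin G are related serine proteases that are packed in an active form. The genes are transcribed in a narrow window of granulopoiesis, in which PU.1 (an ETS factor), C/EBP factors, MYB and RUNX proteins are known regulators.

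The start regions of the 4 granule enzyme genes are shown because their letters can be set beside their unlike levels. Each is the 250 bases before the RefSeq start in GRCm38.p6, read in the direction of transcription. Gene positions and distances further below use GENCODE starts instead. The windows of Mpo and Elane run past those starts. That of Prtn3 lies wholly inside its GENCODE gene, which starts at 79874476. Capitals mark matches on either strand to 5 short motifs: TGTGGT for RUNX, TTGCNNAA for C/EBP, GAGGAA for ETS, TAACNG for MYB and AAATCA for GFI1, and no printed matches overlap.
Mpo, chr11:87793534-87793783, plus strand: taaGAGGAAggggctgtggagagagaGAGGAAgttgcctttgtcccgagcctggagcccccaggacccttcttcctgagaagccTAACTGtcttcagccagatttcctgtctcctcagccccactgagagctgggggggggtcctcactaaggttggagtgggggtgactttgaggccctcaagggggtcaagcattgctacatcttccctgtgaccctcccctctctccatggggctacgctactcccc
Elane, chr10:79886062-79886311, plus strand: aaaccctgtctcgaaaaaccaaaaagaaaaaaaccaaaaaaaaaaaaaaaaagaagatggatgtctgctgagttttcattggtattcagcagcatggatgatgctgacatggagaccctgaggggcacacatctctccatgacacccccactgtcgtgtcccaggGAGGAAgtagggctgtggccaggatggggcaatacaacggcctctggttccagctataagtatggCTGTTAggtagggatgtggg
Prtn3, chr10:79879417-79879666, plus strand: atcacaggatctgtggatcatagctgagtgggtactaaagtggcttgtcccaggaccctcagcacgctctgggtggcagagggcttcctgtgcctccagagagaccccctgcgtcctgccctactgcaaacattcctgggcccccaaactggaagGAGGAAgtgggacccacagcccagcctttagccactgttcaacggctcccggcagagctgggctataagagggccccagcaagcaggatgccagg
Ctsg, chr14:56102575-56102824, minus strand: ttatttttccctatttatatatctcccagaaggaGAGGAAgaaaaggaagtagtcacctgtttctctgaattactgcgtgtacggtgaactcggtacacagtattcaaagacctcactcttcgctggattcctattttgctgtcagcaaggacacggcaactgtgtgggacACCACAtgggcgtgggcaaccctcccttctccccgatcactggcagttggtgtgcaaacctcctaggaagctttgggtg
The ETS letters GAGGAA stood in all 4 windows, 247 and 224 bases before the start in Mpo, 85 in Elane, 95 in Prtn3 and 216 in Ctsg. They were present in 23.3% of 32851 windows of the same length. The MYB letters stood in Mpo (166 bases before the start) and, on the other strand, in Elane (20 bases), against 19.8% of all windows. The RUNX letters stood in Ctsg alone among these 4, on the other strand and 79 bases before the start, against 14.0% of all windows. Windows were found for 6 of the 7 genes, 7 windows in all. The window of Ms4a3 and the 2 of Gfi1 held no ETS, MYB or RUNX letters, and 1 of the Gfi1 windows held the C/EBP letters, as did 9.56% of all windows. The GFI1 letters were in none of the 7 windows and in 12.4% of all. A match is a description of the letters, not a bound site.

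Library totals ran from 3118594 to 5348177 counts. Runx2ko replicate 1 stood apart from the other transformed libraries. Its summed mast cell and basophil markers reached 3772 CPM, against 39.6 and 438.8 CPM in the other Runx2ko libraries. These markers summed to 48.4 to 308.5 CPM in Runx2wt and 780.7 to 949.2 CPM in BM progenitor. All 10 were detected in every Runx2ko library. In Runx2ko replicate 1 Cpa3 alone was at 2002 CPM. Gata2 (567.0 CPM) and Fcer1a (332.8 CPM) were above each BM progenitor library there, and Mcpt8 (306.6 CPM) and Prss34 (171.8 CPM) below. Monocyte and macrophage markers of Runx2ko replicate 1 summed to 348.7 CPM, against 1533 CPM or more in each other library. T cell markers, 7 genes, summed to at most 35.2 CPM in any library and B cell markers, 5 genes, to at most 13.0 CPM, although T-ALL cells are named in the labels' extraction protocol. Runx2 itself had 53.3, 46.7 and 58.8 CPM in BM progenitor, 159.4, 178.8 and 131.0 CPM in Runx2wt, and 21.0, 120.1 and 134.7 CPM in Runx2ko. Since 3' tags can come from a part of the gene that Cre leaves in place, these levels are no check of the deletion. All 9 libraries shared 1 estimate of the spread in the edgeR quasi-likelihood test, so this library bears on Runx2wt against BM progenitor too. Values without it are therefore given for the 7 genes and the list counts. Among the other list genes and neighbours named below, no call against BM progenitor was lost without it, and calls gained there in Runx2wt are stated. The threshold was an adjusted p (Benjamini-Hochberg, over the 11196 genes) of 0.05.

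Mpo, the peroxidase gene, fell from 2168 CPM or more to 80.2 CPM or less in the transformed cells. The 3 protease genes were at 100.4 CPM or more in 5 of the 6 transformed libraries, and none of them passed the test. Elane, Prtn3 and Ms4a3 were nonetheless lower in each Runx2wt library than in each BM progenitor library, without passing. Gfi1 rose, and Serpinb1a was higher in each Runx2wt library than in each BM progenitor library without passing the test. Prtn3 and Serpinb1a passed in Runx2wt when Runx2ko replicate 1 was left out. The plot of levels by library shows all 63 values.

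**Figure D1:**
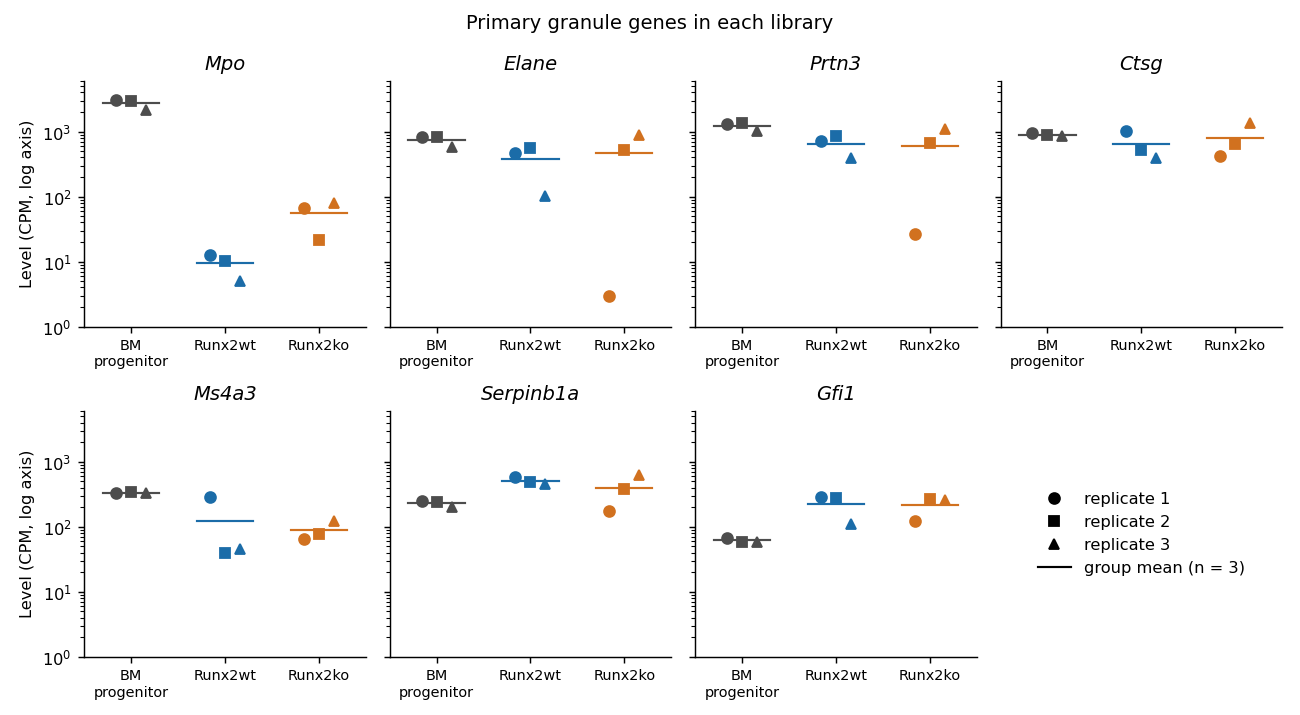
Level of each of the 7 genes in CPM on a log axis, by group. Points are libraries, with the replicate number given by shape, and lines are group means of 3 libraries. Mpo falls from 2168 CPM or more in BM progenitor to 5.01 to 12.8 CPM in Runx2wt, and Elane and Prtn3 drop in Runx2ko replicate 1 alone to 2.91 and 26.8 CPM.

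Mpo (ENSMUSG00000009350, GRCm38 chromosome 11, 87793581 to 87804413, plus strand) encodes myeloperoxidase, the most abundant protein of primary granules. It was at 3055, 2939 and 2168 CPM in BM progenitor replicates 1 to 3. In Runx2wt it was at 12.8, 10.3 and 5.01 CPM, from 68, 37 and 18 counts. In Runx2ko it was at 67.0, 21.3 and 80.2 CPM, from 207, 112 and 296 counts. The 3 groups did not overlap, and the lowest BM progenitor library was above the highest transformed library by a wide margin. By mean level Mpo ranked 21 of 11196 genes in BM progenitor, 8306 in Runx2wt and 3688 in Runx2ko.

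In Runx2wt against BM progenitor Mpo fell by 8.16 log2 units (SE 0.60, 95% interval -9.52 to -6.81, edgeR adjusted p = 0.000345), a 287-fold lower level. That was the 14th lowest log2 fold change of all genes tested. In Runx2ko against BM progenitor it fell by 5.60 log2 units (SE 0.53, interval -6.80 to -4.41, edgeR adjusted p = 0.00138), 48.6-fold lower. Both calls held in all 18 alternatives, with -8.15 and -5.76 without Runx2ko replicate 1. In bulk RNA, fewer cells that make a transcript and less of it per cell cannot be told apart. Eosinophil markers moved with Mpo: their sum was 1377 to 1839 CPM in BM progenitor, 2.49 to 4.52 in Runx2wt and 8.75 to 18.1 in Runx2ko. Of these markers 7 of 8 tested fell in each transformed group. Of all genes 5.23% were called lower in Runx2wt and 7.14% in Runx2ko. Late neutrophil markers summed to 7628 to 10412, 337.2 to 2680 and 403.7 to 7269 CPM. In BM progenitor this sum was made up mostly of S100a8 and S100a9, but not in every transformed library. In Runx2ko replicate 1, Lcn2 made up 277.5 of the 403.7 CPM. Of 10 late neutrophil markers tested, only Camp and Ltf fell in either group, against the same shares of all genes. The list median was -3.23 in Runx2wt and -1.21 in Runx2ko. Without Runx2ko replicate 1, 6 fell in Runx2wt, S100a8 (-2.88, edgeR adjusted p = 0.00969) and S100a9 (-3.62, adjusted p = 0.0226) among them. In Runx2ko 1 rose and 2 fell in that fit, where 28.0% and 28.5% of all genes were called. Lcn2 was the gene that rose there, and had log2 fold changes of 1.25 and 1.67 without passing in the main fit. In the main fit other marker lists also held genes that fell. Of 6 progenitor markers tested, Cd34, Flt3 and Hlf fell in Runx2wt, and Flt3 and Hlf in Runx2ko. Summed progenitor markers were at 528.0 to 615.9 CPM in BM progenitor, 374.5 to 729.1 in Runx2wt and 597.8 to 758.3 in Runx2ko. Of 8 mast cell and basophil markers tested, 3 fell and 1 rose in Runx2wt and 2 rose in Runx2ko. Called higher were 8.28% and 10.0% of all genes. The part of any of these marker lists in the fall of Mpo was not tested.

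Between the transformed groups each Runx2ko library held more Mpo than each Runx2wt library. The log2 fold change was 2.56 (SE 0.49, interval 1.46 to 3.66), 5.90-fold higher. It did not pass in edgeR (adjusted p = 0.511, unadjusted p = 0.000449), and without Runx2ko replicate 1 it was 2.39 (adjusted p = 0.183). DESeq2 gave 2.57 and called it (adjusted p = 6.28e-05). The adjusted p of the alternatives lay between 6.28e-05 and 0.978. The summed eosinophil markers, low in both groups, were also higher in each Runx2ko library than in each Runx2wt library. Of the 8 tested this held for Prg2 alone, with 16.5, 4.76 and 5.42 CPM against 0.376, 2.22 and 2.50 CPM. Its part in the difference was not tested.

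Elane (ENSMUSG00000020125, chromosome 10, 79886247 to 79888215, plus strand) encodes neutrophil elastase, which cleaves elastin and bacterial proteins. It was at 818.0, 837.3 and 576.0 CPM in BM progenitor, 472.8, 551.5 and 100.4 CPM in Runx2wt and 2.91, 518.2 and 895.5 CPM in Runx2ko. Each Runx2wt library lay below each BM progenitor library, and Runx2ko ran from the lowest to the highest value of all 9. The value of Runx2ko replicate 1 rested on 9 counts, with an exact Poisson 95% interval of 1.33 to 5.53 CPM that covers counting error only. Log2 fold changes were -0.99 (SE 1.18, interval -3.62 to 1.65, edgeR adjusted p = 0.597) for Runx2wt and -0.65 (SE 1.17, adjusted p = 0.734) for Runx2ko against BM progenitor. Neither passed. Without Runx2ko replicate 1 they were -0.99 (SE 0.46, adjusted p = 0.132) and -0.08 (adjusted p = 0.925), so the SE of the first fell although that library was not compared.

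Prtn3 (ENSMUSG00000057729, chromosome 10, 79874476 to 79883174, plus strand) encodes proteinase 3, the antigen of autoantibodies in granulomatosis with polyangiitis, and starts 11771 bases before Elane on the same strand. Its levels were 1292, 1374 and 1022 CPM in BM progenitor, 711.0, 856.4 and 387.0 CPM in Runx2wt and 26.8, 663.4 and 1091 CPM in Runx2ko. The order of libraries was much like that of Elane, with Runx2ko replicate 1 lowest and Runx2wt replicate 3 next. Runx2wt lay below BM progenitor in every library, by -0.92 log2 units (SE 0.87, edgeR adjusted p = 0.499). Without Runx2ko replicate 1 the same difference fell by 0.92 with an SE of 0.28 and passed (adjusted p = 0.0293; 0.0208 to 0.715 over all alternatives). Runx2ko differed from BM progenitor by -1.05 (SE 0.87, adjusted p = 0.434), and by -0.49 (adjusted p = 0.261) without replicate 1.

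Ctsg (ENSMUSG00000040314, chromosome 14, 56099881 to 56102574, minus strand) encodes cathepsin G, a protease of neutrophils and mast cells. It was at 959.5, 885.9 and 840.8 CPM in BM progenitor, 1005, 516.6 and 394.2 CPM in Runx2wt and 416.9, 642.6 and 1340.2 CPM in Runx2ko. Its groups overlapped in all 3 comparisons. The log2 fold change was -0.49 (SE 0.43, interval -1.46 to 0.49, edgeR adjusted p = 0.470) in Runx2wt and -0.16 (SE 0.43, interval -1.13 to 0.81, adjusted p = 0.826) in Runx2ko against BM progenitor. Leaving out Runx2ko replicate 1 gave -0.49 (adjusted p = 0.293) and 0.14 (adjusted p = 0.797), so the second turned sign. These intervals leave room for a change of about 1 log2 unit, so the levels were not shown to be equal. Unlike Elane and Prtn3, Ctsg kept 416.9 CPM in Runx2ko replicate 1.

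The makeup of granule enzyme transcripts therefore differed between groups. Mpo, Elane, Prtn3 and Ctsg together took 0.628%, 0.629% and 0.485% of all counts in BM progenitor, 0.222%, 0.183% and 0.0846% in Runx2wt and 0.0509%, 0.182% and 0.328% in Runx2ko. Of the counts of these 4 genes, Mpo made up 49.9%, 48.7% and 47.1% in BM progenitor, 0.581%, 0.530% and 0.565% in Runx2wt and 13.0%, 1.15% and 2.35% in Runx2ko. In Runx2ko replicate 1 Ctsg alone made up 81.2% and Elane 0.567%.

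Because a ratio of genes within a library hardly depends on its scaling, Mpo was also set against each other gene on the scale log2 of CPM + 0.5. The log2 ratio of Mpo to Elane was 1.90, 1.81 and 1.91 in BM progenitor, -5.15, -5.68 and -4.20 in Runx2wt and 4.31, -4.57 and -3.47 in Runx2ko. The ratio to Prtn3 was 1.24, 1.10 and 1.09 in BM progenitor, -5.74, -6.32 and -6.14 in Runx2wt and 1.30, -4.93 and -3.76 in Runx2ko. The ratio to Ctsg was 1.67, 1.73 and 1.37 in BM progenitor, -6.24, -5.59 and -6.16 in Runx2wt and -2.63, -4.88 and -4.05 in Runx2ko. In BM progenitor Mpo was thus the more abundant transcript of each pair. Ctsg exceeded Mpo in all 6 transformed libraries, and Elane and Prtn3 did in 5 of 6. In the sixth, Runx2ko replicate 1, Elane and Prtn3 were low as well, at 2.91 and 26.8 CPM.

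The 6 transformed libraries were tested together against the 3 of BM progenitor by a two-sided exact permutation test for each of 6 ratios, where the smallest p possible is 0.0238. The mean log2 ratio was lower in transformed cells by -6.52 for Mpo to Ctsg, -4.96 for Ms4a3, -7.85 for Serpinb1a and -8.71 for Gfi1, in 6 of 6 libraries each (exact p = 0.0238, Benjamini-Hochberg adjusted p = 0.0357). For Elane (-5.00) and Prtn3 (-5.40) Runx2ko replicate 1 lay above BM progenitor and the exact p was 0.0952. Without that library all 6 ratios passed (adjusted exact p = 0.0357), and with any other library left out none did, the smallest possible p then being 0.0357 or 0.0714.

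**Figure D2:**
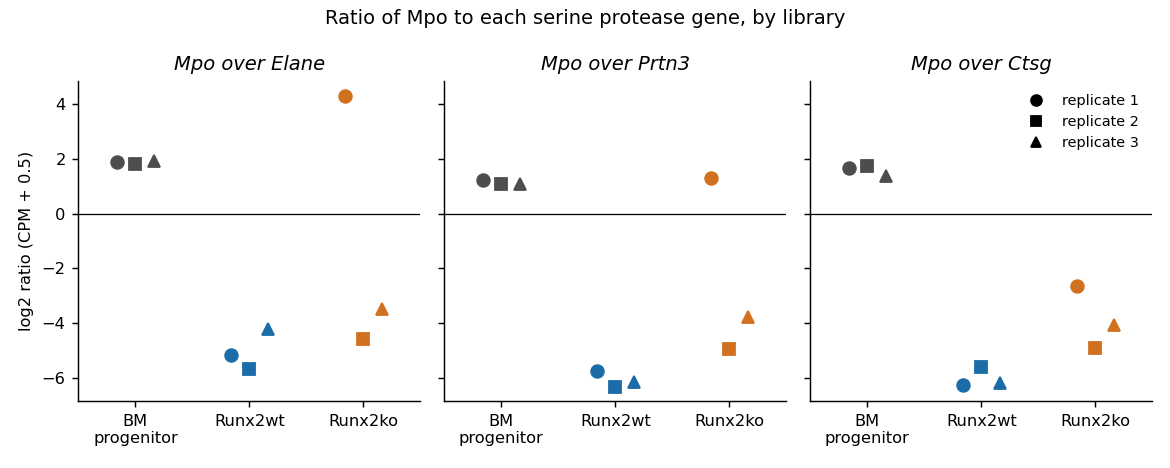
Ratio of Mpo to Elane, Prtn3 and Ctsg in each library, as log2 of CPM + 0.5, by group, with the replicate number given by shape. The 3 BM progenitor libraries lie between 1.09 and 1.91 in every panel, all Runx2wt libraries lie at -4.20 or lower, and Runx2ko replicate 1 lies at 4.31 for Elane, 1.30 for Prtn3 and -2.63 for Ctsg.

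Among the proteases themselves, Elane and Prtn3 moved together. The log2 ratio of Elane to Prtn3 was -0.66, -0.71 and -0.83 in BM progenitor, -0.59, -0.63 and -1.95 in Runx2wt and -3.21, -0.36 and -0.29 in Runx2ko. Across 9 libraries Pearson's r of their log2 levels was 0.99, and 0.92 over 8 libraries without Runx2ko replicate 1. For Mpo and Elane r was 0.29, and 0.61 without that library. The points share library, group and scaling, so these values only describe them. Ctsg exceeded Elane by 1.06 to 1.46 times in BM progenitor and by 143 times in Runx2ko replicate 1.

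Ms4a3 (ENSMUSG00000024681, chromosome 19, 11629496 to 11640851, minus strand) encodes a four-span membrane protein of granulocyte and monocyte progenitors. It was at 328.5, 346.9 and 331.7 CPM in BM progenitor, the tightest of the 7 genes there. In Runx2wt it was at 284.3, 38.8 and 45.3 CPM and in Runx2ko at 66.0, 78.4 and 120.9 CPM. Every transformed library lay below BM progenitor, but Runx2wt replicate 1 only slightly. The log2 fold change was -1.44 (SE 0.66, edgeR adjusted p = 0.166) for Runx2wt and -1.92 (SE 0.67, adjusted p = 0.0770) for Runx2ko, and neither passed. Without Runx2wt replicate 1 both passed (-3.02, adjusted p = 0.00381, and an adjusted p of 0.00529). Leaving out Runx2ko replicate 1 gave -1.44 (adjusted p = 0.0902) and -1.76 (adjusted p = 0.0775). The alternatives gave an adjusted p of 0.00381 to 0.365 for Runx2wt and of 0.00529 to 0.168 for Runx2ko.

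Serpinb1a (ENSMUSG00000044734, chromosome 13, 32842092 to 32851185, minus strand) encodes a serpin that inhibits elastase, proteinase 3 and cathepsin G inside the neutrophil. It was at 248.2, 244.1 and 204.1 CPM in BM progenitor, 588.0, 490.3 and 461.0 CPM in Runx2wt and 177.3, 380.6 and 636.1 CPM in Runx2ko. Each Runx2wt library lay above each BM progenitor library, whereas Runx2ko replicate 1 lay below BM progenitor. The log2 fold change in Runx2wt was 1.14 (SE 0.37, interval 0.31 to 1.97, edgeR adjusted p = 0.0683) and did not pass. It passed in 5 of 18 alternatives, among them without Runx2ko replicate 1 (adjusted p = 0.00185), and its adjusted p lay between 0.000385 and 0.219 across them. In Runx2ko it was 0.78 (SE 0.37, adjusted p = 0.171), and 1.13 (adjusted p = 0.00346) without replicate 1. The near copy Serpinb1c had at most 1 count in any library, and Serpinb1b was not matched in the count table. How reads that fit more than 1 gene were counted is not given here. Sharing of reads with Serpinb1a was not tested.

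Gfi1 (ENSMUSG00000029275, chromosome 5, 107716657 to 107726036, minus strand) encodes a zinc finger repressor that granulopoiesis requires. It was at 67.9, 59.1 and 58.2 CPM in BM progenitor, 285.1, 280.5 and 111.6 CPM in Runx2wt and 121.3, 266.2 and 257.7 CPM in Runx2ko. All 6 transformed libraries lay above all of BM progenitor. Gfi1 rose in Runx2wt, by 1.87 on the log2 scale (SE 0.39, interval 0.99 to 2.75, edgeR adjusted p = 0.0181) and in Runx2ko, with 1.80 (SE 0.39, interval 0.93 to 2.68, adjusted p = 0.0172), 3.66-fold and 3.49-fold. Leaving out BM progenitor replicate 1, 2 or 3 ended both calls, with an adjusted p of 0.0662, 0.0819 and 0.0901 for Runx2wt and of 0.0625, 0.0759 and 0.0773 for Runx2ko. The call for Runx2wt also ended without its replicate 1 (0.0541) or 2 (0.0722). Both calls held without Runx2ko replicate 1, with 1.87 (adjusted p = 0.00102) and 2.08 (adjusted p = 0.000972). Fits without a compared library have fewer libraries in a group, and the direction was the same in each.

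In all, 1 of 7 genes rose and 1 fell in Runx2wt against BM progenitor and 5 did not pass, where 8.28% of all genes tested were called higher and 5.23% lower. In 6 of 7 the libraries of these groups did not overlap, 2 higher and 4 lower, against 49.3% of all genes. Without Runx2ko replicate 1, 2 rose (Serpinb1a and Gfi1) and 2 fell (Mpo and Prtn3), against 28.0% of all genes called. The median log2 fold change of the 7 was -0.92, and 0.01 over all genes.

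In Runx2ko against BM progenitor 1 gene rose, 1 fell and 5 did not pass, where 10.0% of all genes were called higher and 7.14% lower. The groups did not overlap for Mpo, Ms4a3 and Gfi1, against 38.4% of all genes. Without replicate 1, 2 rose and 1 fell, against 28.5% called. The median was -0.65, and 0.07 over all genes. This comparison shares its BM progenitor libraries with the one before.

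Between Runx2ko and Runx2wt none of the 7 genes passed in edgeR, and neither did any other gene (0.00% called). An unadjusted p below 0.05 was found for 886 genes. With DESeq2 1 of the 7 was called, Mpo, against 0.410% of the genes it gave an adjusted p. Mpo was the only 1 of the 7 whose groups did not overlap, against 9.68% of all genes. Without Runx2ko replicate 1 edgeR called none of the 7 and 0.0430% of all genes. Beside Mpo, log2 fold changes ran from -0.48 for Ms4a3 to 0.33 for Elane, and without that library from -0.32 for Ms4a3 to 0.91 for Elane. The 95% intervals were wide, -2.28 to 2.95 for Elane, -2.07 to 1.80 for Prtn3, -0.65 to 1.30 for Ctsg, -1.94 to 0.98 for Ms4a3, -1.19 to 0.45 for Serpinb1a and -0.91 to 0.78 for Gfi1.

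**Figure D3:**
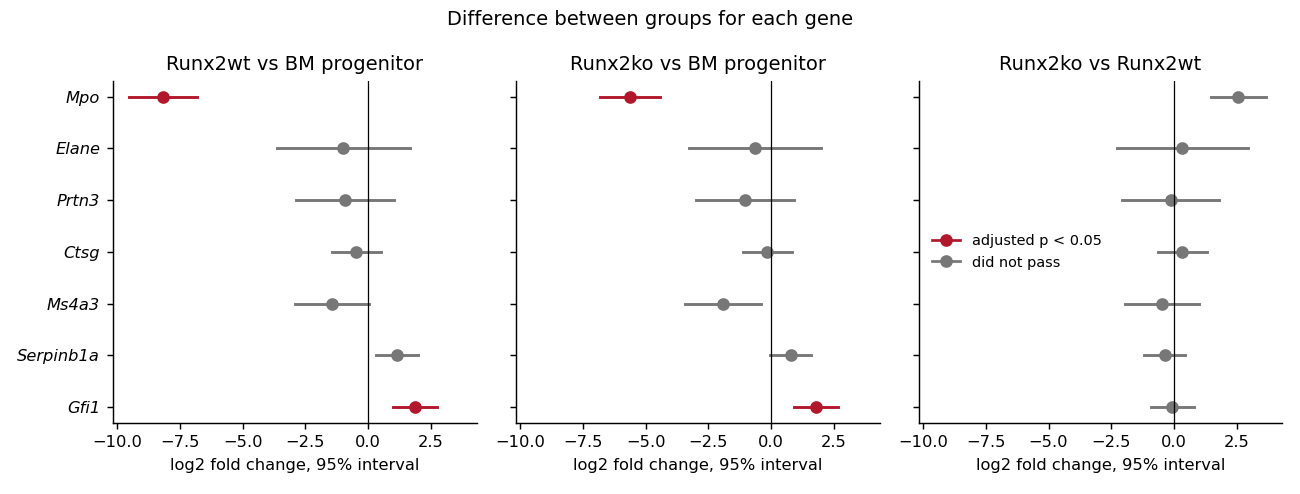
Log2 fold change (points) and 95% interval (lines) of each of the 7 genes in the 3 comparisons, from the edgeR fit of all 9 libraries; red marks an adjusted p under 0.05. Mpo lies at -8.16 and -5.60 against BM progenitor, Gfi1 at 1.87 and 1.80, and the intervals of Elane and Prtn3 span 0 in all 3 comparisons.

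Other genes of the granule pathway were read from lists. Of 18 tested granule companions (of 19 listed), 1 rose and 6 fell in Runx2wt, with a median log2 fold change of -0.80 against 0.01 over all genes, and 2 rose and 5 fell in Runx2ko. Over all genes 8.28% rose and 5.23% fell in Runx2wt, and 10.0% and 7.14% in Runx2ko; the counts of each list below are to be read against these shares. Of the companions, 4 rose and 9 fell in Runx2wt and 4 and 6 in Runx2ko without Runx2ko replicate 1, where 28.0% and 28.5% of all genes were called either way. Fcnb, the lectin ficolin B, was at 52.7, 47.7 and 28.2 CPM in BM progenitor and had 0 counts in all 3 Runx2wt libraries, at least 179-fold lower against a floor of 3 counts over the group. Ctsc, the protease that activates elastase, proteinase 3 and cathepsin G, fell by 1.77 log2 units (SE 0.26, edgeR adjusted p = 0.00525), from 294.1, 327.2 and 382.9 CPM to 79.0, 97.0 and 118.8 CPM, and by 1.74 in Runx2ko. Cst7, which encodes the cathepsin C inhibitor cystatin F, fell by 1.39 log2 units (adjusted p = 0.0213), so the genes of both the activator and its inhibitor were lower.

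Nkg7, a granule membrane protein gene, fell by 4.47 log2 units (edgeR adjusted p = 0.00390) and Ctsh, a lysosomal cathepsin, by 2.56 (adjusted p = 0.0107). Hdc, which makes histamine and marks mast cells and basophils, fell by 4.45 (adjusted p = 0.0328). The gene that rose was Rab44, a granule-associated GTPase, by 1.23 (adjusted p = 0.0377). Prss57, the fourth serine protease of neutrophil granules, was at 87.8, 93.6 and 64.6 CPM in BM progenitor, 45.7, 11.4 and 3.89 CPM in Runx2wt and 112.9, 58.8 and 72.9 CPM in Runx2ko. Its groups did not overlap in either comparison with Runx2wt, but the log2 fold changes of -1.98 against BM progenitor and 1.97 in Runx2ko against Runx2wt did not pass (adjusted p = 0.0778 and 0.579). The first passed without Runx2ko replicate 1 (-1.96, adjusted p = 0.0256) and the second did not (1.64, adjusted p = 0.521). The proteoglycan gene Srgn, whose product packs granule proteases, was at 646.1 to 678.8 CPM in BM progenitor and 355.8 to 846.1 CPM in Runx2wt and did not pass (log2 fold change -0.09).

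**Figure D4:**
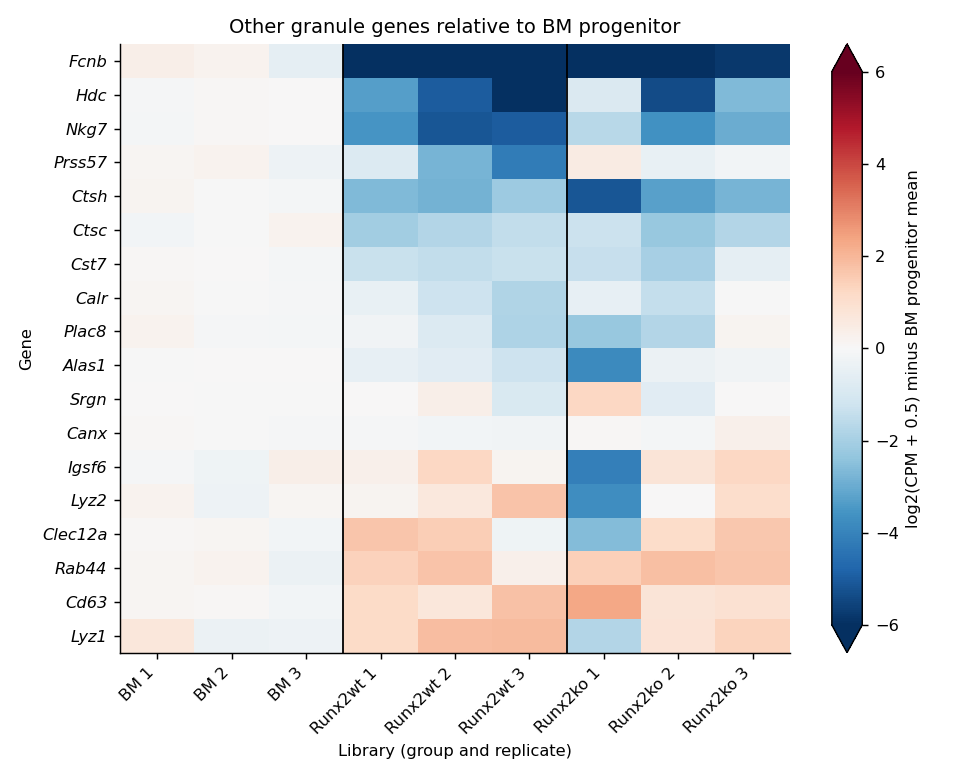
Granule companion genes that passed the low-count filter (rows) in each library (columns), coloured by log2 of CPM + 0.5 minus the BM progenitor mean. Fcnb, Hdc and Nkg7 are lower in every Runx2wt library, and Alas1, Lyz2 and Igsf6 are lowest in Runx2ko replicate 1. Values past 6 log2 units take the end colour.

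Of 22 tested regulators of the promyelocyte stage, none rose and 2 fell in Runx2wt, with a median of -0.05, and 1 rose and 2 fell in Runx2ko. The counts without Runx2ko replicate 1 were 3 and 7 in Runx2wt, against 28.0% of all genes called, and 3 and 6 in Runx2ko. Egr2, a zinc finger factor of the monocyte side, fell by 2.43 log2 units (edgeR adjusted p = 0.0223) and Runx1 by 1.06 (adjusted p = 0.0233). Cebpa, which encodes the C/EBP factor that starts granulopoiesis, was at 179.2, 122.5 and 109.0 CPM in BM progenitor and 213.4, 182.6 and 111.0 CPM in Runx2wt and did not pass (log2 fold change 0.30). Spi1, the gene of PU.1, differed by 0.05 and Myb by 0.49, also without passing. Cebpe, needed after the promyelocyte stage, was at 44.2, 28.9 and 27.6 CPM in BM progenitor, 33.3, 9.15 and 2.23 CPM in Runx2wt and 1.29, 8.94 and 13.8 CPM in Runx2ko, and did not pass (adjusted p = 0.376 and 0.137).

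Of 13 tested protease inhibitor genes (of 19 listed), 2 rose and 1 fell in Runx2wt, with a median of -0.21, and 2 rose in Runx2ko. Leaving out Runx2ko replicate 1 gave 3 and 3 in Runx2wt and 5 and 2 in Runx2ko. Serpinb6a, a relative of Serpinb1a that inhibits cathepsin G, was at 9.67, 11.6 and 12.3 CPM in BM progenitor, 101.8, 100.6 and 103.5 CPM in Runx2wt and 42.7, 32.7 and 56.6 CPM in Runx2ko. It rose in Runx2wt by 3.19 on the log2 scale (edgeR, SE 0.23, adjusted p = 0.000345) and by 1.97 in Runx2ko (adjusted p = 0.00200), and its 3 groups did not overlap. Stfa1, a stefin that inhibits cysteine proteases and belongs to a family of near copies, rose by 5.06 (adjusted p = 0.0430). Slpi, a secreted inhibitor of elastase, fell by 0.88 (adjusted p = 0.0238).

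Of 11 tested genes of other peroxidases and the NADPH oxidase (of 13 listed), 2 rose and 1 fell in Runx2wt, with a median of 0.12, and 1 rose and 1 fell in Runx2ko. With Runx2ko replicate 1 left out they were 3 and 2 in Runx2wt and 2 and 3 in Runx2ko. Rac2 and Cyba, parts of the oxidase that supplies superoxide for the peroxide used by myeloperoxidase, rose by 1.11 (edgeR adjusted p = 0.0222) and 1.02 log2 units (adjusted p = 0.0373). Cybb, its catalytic subunit, was at 391.9 to 537.8 CPM in BM progenitor and 133.2, 262.2 and 517.2 CPM in Runx2wt and did not pass (-0.65, adjusted p = 0.643). Cat, the catalase gene, was at 138.9 to 163.1 CPM in BM progenitor and 163.9 to 206.2 CPM in Runx2wt and did not pass either (0.32, adjusted p = 0.181). Between Runx2ko and Runx2wt edgeR called no gene at all. DESeq2 called 3 of the 73 genes on the 4 lists, of which 64 were tested in edgeR, against 0.410% of all genes it gave an adjusted p. They were Runx1 (1.22, DESeq2 adjusted p = 0.00846), Serpinb6a (-1.22, 0.00359) and Slpi (0.96, 0.0159).

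The gene that fell was Epx, eosinophil peroxidase, the closest relative of Mpo. It lies 81955 bases from the Mpo start on the opposite strand and was at 49.6, 46.7 and 39.3 CPM in BM progenitor, with 0 counts in Runx2wt and 1 count in all of Runx2ko, at least 189-fold lower in Runx2wt. Of 11 protein-coding genes within 200 kb of the Mpo start 5 were tested. Epx was the only 1 of them that passed in Runx2wt, where 8.28% of all genes were called higher and 5.23% lower. Supt4a, 56029 bases before Mpo, differed by 0.11 log2 units and Tspoap1, 33040 bases before it, by -0.83, and neither passed. Lpo, the third peroxidase gene of the cluster, was listed at 0 in all libraries.

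Of 20 genes tested within 200 kb of Prtn3, Elane among them, 1 rose and 1 fell in Runx2wt, against 8.28% and 5.23% of all genes. R3hdm4 rose by 0.68 and Wdr18 fell by 0.75 log2 units, and the median was -0.04 against 0.01 over all genes. Plppr3, which starts 158 bases into Prtn3 on the opposite strand, was at 60.8, 65.5 and 62.7 CPM in BM progenitor, 71.9, 116.1 and 90.1 CPM in Runx2wt and 6.15, 134.0 and 114.6 CPM in Runx2ko. It was thus low in Runx2ko replicate 1 together with Prtn3 and Elane, but higher in each Runx2wt library than in BM progenitor, without passing (0.56, edgeR adjusted p = 0.636); it passed without Runx2ko replicate 1 (0.55, adjusted p = 0.0486). The sources used here do not state whether counting used strand. The overlap lies at the starts of both genes, whereas reads are taken near the 3' ends. Sharing of reads between them was not tested.

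Ctsg lies in the locus of mast cell proteases and granzymes, of which 3 of 14 genes within 200 kb were tested, and these did not move together. Cma1, mast cell chymase, was at 0.182, 0.270 and 0.425 CPM in BM progenitor and 3.39, 39.4 and 110.4 CPM in Runx2wt and rose by 7.32 on the log2 scale (SE 1.69, edgeR adjusted p = 0.0247). Mcpt8, a basophil protease gene, was at 412.2, 344.7 and 395.7 CPM in BM progenitor and 7.90, 3.33 and 1.67 CPM in Runx2wt and fell by 6.41 log2 units (SE 1.54, adjusted p = 0.0281). Gzmb, granzyme B, was at 80.7, 115.2 and 111.1 CPM in BM progenitor and 0.753 to 6.68 CPM in Runx2wt and reached 2319 CPM in Runx2ko replicate 1. Its difference in Runx2wt did not pass (-5.09, adjusted p = 0.133) but did without that library (-5.12, adjusted p = 0.000503). In that library Mcpt8 was at 306.6 CPM and Ctsg at 416.9 CPM, beside 3772 CPM of mast cell and basophil markers, whose part in its Ctsg level was not tested.

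Near Ms4a3 9 of 14 genes were tested, and 2 fell, where 5.23% of all genes were called lower. Their log2 fold changes ran from -4.34 to 0.18, with a median of -2.86 against 0.01 over all genes. The median gene had a mean of only 2.90 CPM in BM progenitor and 0.344 CPM in Runx2wt, so that value rests on few counts. Ms4a2, the beta chain of the IgE receptor of mast cells and basophils, lies 17132 bases downstream and fell by 3.86 log2 units (edgeR adjusted p = 0.0384), and Ms4a6c fell by 4.34 (adjusted p = 0.0113). Ms4a2 was at 85.1 CPM in Runx2ko replicate 1, against 5.14 and 13.6 CPM in replicates 2 and 3, while Ms4a3 was lowest there.

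**Figure D5:**
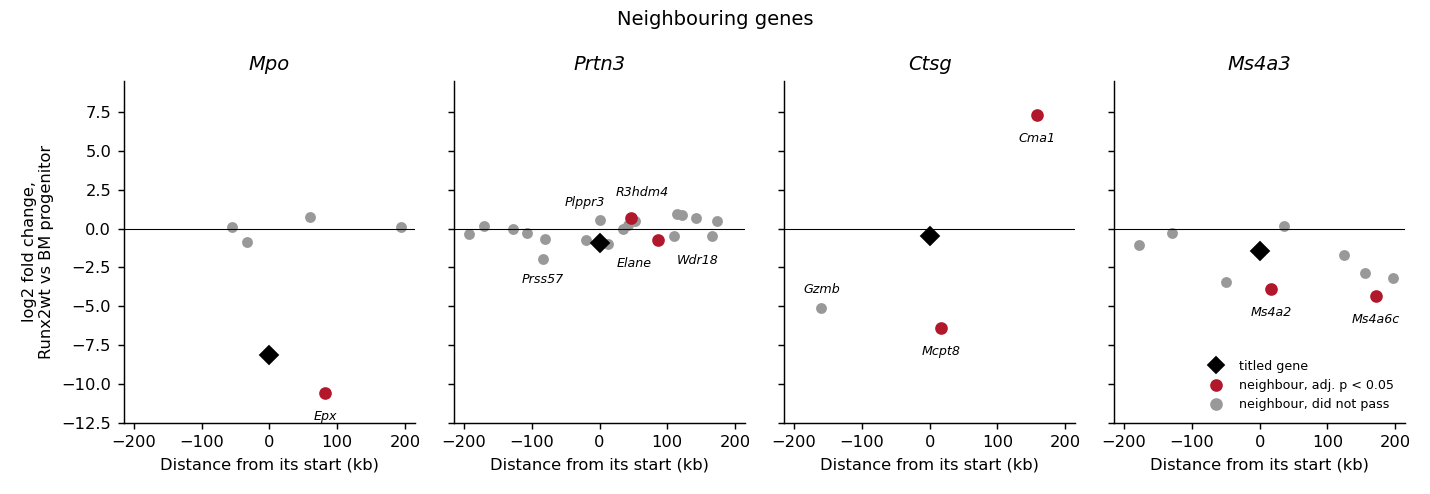
Log2 fold change in Runx2wt against BM progenitor of tested genes within 200 kb of the starts of Mpo, Prtn3, Ctsg and Ms4a3, by distance in kb along the strand of the titled gene (black diamond). Red marks an adjusted p under 0.05. Only Epx falls beside Mpo, Cma1 and Mcpt8 lie on opposite sides of 0 around Ctsg, and the genes around Prtn3 lie between -1.98 and 0.93; the point of Epx, with 0 counts in Runx2wt, depends on the prior count of the fit.

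The genes with the most similar pattern were taken by Pearson's r of log2 levels across the 9 libraries, over 8350 genes with enough counts. For Mpo they were Nelfa, Prg3 and Ccl24 (r = 0.98 each). Prg3 and Ccl24, an eosinophil granule gene and an eosinophil-attracting chemokine gene, were at 24.4 to 45.3 and 103.5 to 187.7 CPM in BM progenitor and at no more than 0.376 CPM in Runx2wt, and Nelfa went only from 140.0 to 142.9 to 55.6 to 72.8 CPM. For Elane they were Dck, Alas1 and Gsr, and for Prtn3 Alas1, Tfpi and Dck (r = 0.97 to 0.99). Alas1, the first enzyme of haem synthesis, was at 143.8, 150.8 and 151.0 CPM in BM progenitor, 105.0, 92.3 and 62.9 CPM in Runx2wt and 10.0, 114.9 and 129.5 CPM in Runx2ko. Like Elane and Prtn3 it was lowest in Runx2ko replicate 1, and without that library its r was 0.89 with Elane and 0.91 with Prtn3.

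For the remaining genes the closest were Ltb4r1, Gpr160 and Limk2 for Ctsg (r = 0.93 to 0.94) and Tial1, Slco3a1 and Kat2a for Ms4a3 (0.93 to 0.95). Mrpl33, Slc35b2 and Tmem234 were closest to Serpinb1a (0.98 each), and Glyat, Snx13 and 9630013D21Rik to Gfi1 (0.98 to 0.99). Within the 7 genes, Serpinb1a and Gfi1 had r = 0.78 and Mpo and Ms4a3 also 0.78, while Mpo and Gfi1 had -0.80. Without Runx2ko replicate 1 these were 0.88, 0.80 and -0.81. With 3 groups that differ at many genes, values of this size over 9 libraries describe the pattern and do not test a relation.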

How the data were processed

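For all 9 libraries the authors deposited raw counts by Ensembl gene and a second table of values that equal those counts divided by 1 constant per library. The submitters' processing notes name FastQC, STAR, DESeq2 and the build GRCm38; tool versions, counting program and annotation release are not given here. GENCODE symbols of that build matched 21042 of 21159 identifiers, and 1188 genes had no count.

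The quasi-likelihood F-test of edgeR 4.0.16 (R 4.3.3) was run on the counts of all 9 libraries together, with TMM factors, after filterByExpr had kept 11196 genes. Standard errors came from the F statistic. The fit was tested on simulated data. Ratios used a pseudocount of 0.5 CPM and an exact permutation test.

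Alternatives were DESeq2 1.42.0, limma-voom (limma 3.58.1), RLE factors, other filters, the authors' normalized values, only the compared groups, a replicate block and leaving out each library. The 7 genes and all lists were chosen with earlier results of these data known. By rule the text names the 7 genes, up to 3 largest passing changes of each list, tested neighbours within 200 kb and the 3 most similar genes of each; not every one is printed. Ctsc, Cst7, Ctsh, Rab44, Srgn, Cebpa, Spi1, Myb, Cebpe, Cybb and Cat were picked from the lists after their values were seen. So were the single marker genes that are named. Promoter windows came from RefSeq, GRCm38.p6.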

Additional observations from a re-analysis of the deposited data

How the results depend on the processing

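The number of the 7 genes called in Runx2wt against BM progenitor, 2, was 4 with only the groups compared in the fit and 1 to 4 with each library left out. In Runx2ko against BM progenitor, 2 became 1 to 3 with a library left out. Between Runx2ko and Runx2wt, 0 became 1 (Mpo) with DESeq2 and stayed 0 with each library left out. Of the Mpo ratios, 4 passed, but 0 with Runx2wt alone as the transformed group, where the smallest p possible is 0.1, and 0 to 6 with a library left out. Log2 fold changes that turned sign were called in neither fit. For Runx2ko against Runx2wt, with a library left out, they ran from -0.52 to 0.91 for Elane, -0.91 to 0.43 for Prtn3, -0.27 to 0.83 for Ctsg, -0.90 to 1.08 for Ms4a3 and -0.40 to 0.21 for Gfi1. With limma-voom Elane was at -1.29 and Ms4a3 at 0.045, and with the authors' normalized values at -1.39 and 0.10. For Runx2ko against BM progenitor Ctsg ran from -0.76 to 0.14 with a library left out, the last without Runx2ko replicate 1. The cause was not tested. Over all genes, 1513 calls in Runx2wt against BM progenitor became 3679 with only the groups compared, 3256 without Runx2ko replicate 1 and 209 at the lowest with another library left out; 1924 calls in Runx2ko became 1262, 3311 and 405. Same-numbered replicates did not deviate together (r from -0.066 to 0.072). With the replicate number as a block, 2 of the 7 genes were called in each comparison with BM progenitor and 0 between the transformed groups, and of all genes 922 in Runx2wt and 1120 in Runx2ko against BM progenitor.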
